A study of Mus musculus with 19 samples.

Results

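The comparison of a high-fat diet (HFD) with a purified normal chow diet (NCD) was made in quadriceps muscle over both genotypes, with the genotype as a term of the model. All 19 arrays of the study entered it, 9 from mice on the HFD and 10 from mice on the NCD. The mice were congenic C57Bl6J males of 2 genotypes, wild type controls (CTR) and AR113Q. AR113Q mice are knock-in mice whose androgen receptor carries an expanded polyglutamine tract, and they are a model of spinal and bulbar muscular atrophy (SBMA). The groups were CTR-NCD (n = 5), AR113Q-NCD (n = 5), CTR-HFD (n = 4) and AR113Q-HFD (n = 5). Mice were fed their diet from 40 days of age and were sacrificed at 180 days. The knock-in allele is present in the whole animal, so muscle was not the sole tissue that carried it. Whether a sample held RNA of a single mouse is not stated in the sources used here, so p-values measure the spread between samples.

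Skeletal muscle takes up fatty acids from the blood and can also make them. In the cytosol, citrate is split to acetyl-CoA, acetyl-CoA carboxylase makes malonyl-CoA, and fatty acid synthase builds palmitate, which elongases and desaturases then lengthen and unsaturate. Insulin and carbohydrate raise the transcription of these enzymes through the factor SREBP-1c, and dietary polyunsaturated fat is known to lower it in liver. Quadriceps is a mostly fast, glycolytic muscle with a deep portion that is richer in slow fibers.

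Each array was hybridized with 1 sample, and n counts arrays. Levels are log2 signals relative to the 75th percentile of the array, so that 0 stands for that percentile. Levels of different genes come from different probes and were not compared with each other. The diet difference is the HFD minus NCD term of an additive model with genotype and diet, on the log2 scale, with its standard error (SE). Of the probes, 32026 of 24826 genes had signal well above background on 4 or more arrays and were tested. Where a gene had several probes, the brightest stood for it unless another is named. Each library's share of probes well above background was between 67.1% and 80.1%. Markers of skeletal muscle were bright on every array (list mean 6.60 to 7.11) and had a median diet difference of -0.01 over 12 genes.

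With the diet term, 1 gene passed an adjusted p of 0.05 in limma, and it was lower on the HFD. This gene was Fasn, the fatty acid synthase, and genes called lower made up 0.00403% of the 24826 genes tested. No gene passed as higher (0%). Arrays of one slide deviated together (correlation 0.224), and with slide as a random block 18 genes passed as lower and 9 as higher, whereas with slide as a fixed block 1 passed in each direction. Counted without adjustment, 1798 genes lay higher and 1500 lower at p under 0.05. At an adjusted p under 0.1, 8 genes were lower (0.0322%) and 2 higher (0.00806%). Of the 8 lower ones, 5 were enzymes that make or modify fatty acids or their precursors: Fasn, Acaca, Elovl6, Scd2 and Scd3. Another, Acat2, makes acetoacetyl-CoA in the cytosol for sterol synthesis. The other two were Slc25a35, a member of the mitochondrial carrier family, and a transcript without a gene name, NAP092820-001, which was well above background on 8 NCD arrays and 1 HFD array. The 2 higher ones were Ccdc64 and the non-coding RNA Cerox1.

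Fasn was 4.94-fold lower on the HFD (log2 difference -2.30, SE 0.32, 95% interval -2.99 to -1.62, adjusted p = 0.0454). Its probe lies at chr11:120667666-120667725 on the minus strand of mm9, the build of the files. The CTR-NCD arrays read -2.16, -1.42, -1.59, -0.61 and -0.84, and the CTR-HFD arrays -3.61, -2.25, -3.3 and -2.17. The AR113Q-NCD arrays read -0.60, 1.13, 0.14, -0.41 and 0.52, and the AR113Q-HFD arrays -2.99, -2.45, -2.37, -3.59 and -2.88. Within each genotype, every HFD array lay below every NCD array, narrowly so in CTR. That pattern was found for 0.0363% of all genes tested. The NCD means were -1.33 ± 0.62 (SD, n = 5) in CTR and 0.16 ± 0.70 (SD, n = 5) in AR113Q. The HFD means were -2.83 ± 0.73 (SD, n = 4) and -2.86 ± 0.49 (SD, n = 5). The arrays of the 2 genotypes thus touched only at their edges on the NCD and lay in one range on the HFD.

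The call of Fasn stood close to the threshold. When each array was left out in turn, the difference stayed between -2.46 and -2.14, and its adjusted p was between 0.0154 and 0.135. It stayed under 0.05 without CTR-NCD replicate 1 or 2, AR113Q-NCD replicate 2, CTR-HFD replicate 2, 3 or 4, or AR113Q-HFD replicate 3, and not without any of the other 12 arrays. The Fasn log2 difference HFD minus NCD was -2.20 with the authors' values (adjusted p = 0.0548), and its adjusted p was 0.0898 to 0.242 with any slide left out. With diet labels exchanged within genotype, an exact permutation test of Fasn alone gave p = 6.3e-05, the smallest that the 31752 labelings allow. Adjusted over the 8 genes measured by real-time PCR, the exact permutation p was 0.000504. The separation of the diets within each genotype by itself forces this smallest value, so the test adds nothing to that separation. The paper measured Fasn by real-time PCR after its microarray analysis. The adjustment over 8 genes therefore does not replace the one over all probes. Fasn was lower in 9 of 9 pairs of HFD and NCD arrays of the same genotype on the same slide. That count was fixed by the separation of the diets within each genotype, so it is not a further test.

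Acaca encodes acetyl-CoA carboxylase 1, the enzyme before fatty acid synthase. It had a difference of -1.04 (SE 0.17, adjusted p = 0.0516). Its CTR-NCD arrays read 1.59, 1.83, 1.84, 2.53 and 2.22 and its CTR-HFD arrays 1.19, 1.38, 1.45 and 1.52. In AR113Q the NCD arrays read 2.27, 3.48, 2.74, 2.49 and 3.14 and the HFD arrays 1.43, 1.29, 1.64, 1.14 and 1.54. The HFD arrays were below the NCD arrays in both genotypes. All 4 probes of Acaca had a difference below 0, from -1.04 to -0.92.

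Elovl6, the elongase that turns palmitate into stearate, had a difference of -2.05 (SE 0.34, adjusted p = 0.0516). Its arrays read -2.96, -2.05, -2.37, -1.55 and -1.36 in CTR-NCD and -3.44, -2.95, -3.08 and -3.19 in CTR-HFD. They read -0.99, 1.46, -0.33, -0.65 and 0.19 in AR113Q-NCD and -2.61, -3.15, -2.93, -3.11 and -2.93 in AR113Q-HFD. The HFD arrays were below every NCD array in AR113Q, whereas in CTR the lowest NCD array, replicate 1, lay at the upper edge of the HFD arrays.

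The stearoyl-CoA desaturases place the double bond that makes oleate. Scd2 had a difference of -0.83 (SE 0.14, adjusted p = 0.0516). It read 2.20, 3.0, 2.51, 2.66 and 3.34 in CTR-NCD against 1.26, 1.81, 1.81 and 1.81 in CTR-HFD. It read 1.44, 1.67, 2.09, 1.86 and 1.48 in AR113Q-NCD against 1.13, 1.0, 0.91, 1.25 and 1.16 in AR113Q-HFD. The groups did not overlap by diet in either genotype, and the AR113Q-NCD arrays reached down to the range of the CTR-HFD arrays. Scd1, the other main desaturase of muscle and fat, had a difference of -2.0 (SE 0.38, adjusted p = 0.109), with CTR-HFD arrays spread from 0.87 to 3.51. The 3 probes of Scd3 disagreed. The brightest differed by 0.10 (SE 0.07, adjusted p = 0.677), another by -0.13 (SE 0.20, adjusted p = 0.863) and the one counted above by -1.64 (SE 0.27, adjusted p = 0.0516). The Scd genes are close paralogs, and whether a probe also bound RNA of another member was not tested.

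**Figure D1:**
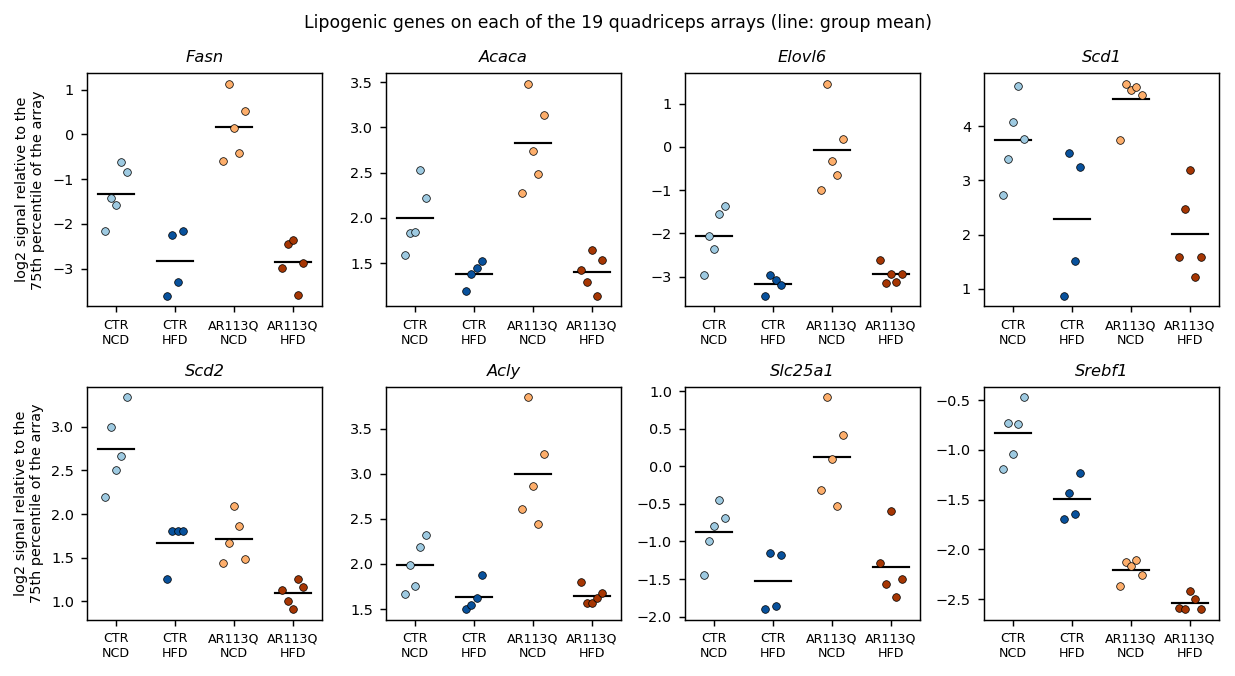
Level of 8 lipogenic genes on each array (log2 signal relative to the 75th percentile of the array, 1 point per array, line at the group mean), with 5, 4, 5 and 5 arrays from left to right. For Fasn, Acaca, Scd2 and Srebf1 the HFD points lie below all NCD points of the same genotype. For Fasn, Acaca, Elovl6, Scd1, Acly and Slc25a1 the AR113Q-NCD group has the highest mean.

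The list of fatty acid synthesis genes held 31 members, all tested. A total of 14 were lower at an unadjusted p under 0.05, against 4.50% of all genes, and 2 were higher, against 6.31%. At an adjusted p under 0.1 there were 4 (Fasn, Elovl6, Acaca and Scd2), against 0.0282% of all genes by their brightest probe. The median difference of the list was -0.19, against 0.01 for all genes tested. It was -0.15 in CTR and -0.27 in AR113Q. The count of 14 stayed between 13 and 16 when any array was left out and was 10 with CTR arrays alone and 13 with AR113Q arrays alone. For comparison, 48.4% of all genes had a difference below 0, and in this list 21 of 31 did.

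The members lay along the whole route. Slc25a1, the carrier that exports citrate from mitochondria, differed by -1.08 (SE 0.22, adjusted p = 0.163). Acly, which splits citrate, differed by -0.88 (SE 0.19, adjusted p = 0.175). The acetoacetyl-CoA synthetase Aacs differed by -0.58, the lipogenic protein Thrsp by -0.55, the lipid droplet protein Pnpla3 by -0.45 and the delta-5 desaturase Fads1 by -0.35, with adjusted p of 0.243, 0.264, 0.264 and 0.356. A dimmer probe of Pnpla3 was at 0.11 (SE 0.25). The 2 members that were higher were Acacb (0.15, adjusted p = 0.403), the carboxylase isoform at the mitochondrial surface that restrains fatty acid entry for oxidation, and the mitochondrial fatty acid synthase component Oxsm (0.11, adjusted p = 0.445). The dimmer probe of Acacb had the opposite sign (-0.14, SE 0.08, adjusted p = 0.540).

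Among 16 regulators of lipogenesis, 4 were lower and 1 higher at an unadjusted p under 0.05, against 4.50% and 6.31% of all genes. The median was -0.01. Srebf1, which encodes SREBP-1, had a difference of -0.49 (SE 0.09, adjusted p = 0.109). It read -1.19, -0.73, -1.04, -0.74 and -0.47 in CTR-NCD and -1.69, -1.43, -1.64 and -1.23 in CTR-HFD. It read -2.37, -2.13, -2.17, -2.11 and -2.26 in AR113Q-NCD and -2.59, -2.60, -2.42, -2.50 and -2.60 in AR113Q-HFD. The diets did not overlap in either genotype, although the AR113Q arrays of both diets lay below all CTR arrays, which is not the order seen for Fasn or Acaca. Insig1, which holds the SREBP precursor in the endoplasmic reticulum and is itself an SREBP target, differed by -0.57 (SE 0.12, adjusted p = 0.170). Usf1, an E-box binding factor, differed by -0.20 (adjusted p = 0.349) and Srebf2, which drives sterol synthesis, by -0.25 (adjusted p = 0.455). Scap, the escort of SREBP, had a difference of 0.14 (adjusted p = 0.310).

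Of 23 cholesterol synthesis and uptake genes tested, 8 were lower at an unadjusted p under 0.05 (against 4.50% of all genes) and 0 higher, with a median of -0.13. The count was 6 to 9 with any array left out, and 3 with CTR arrays alone. Acat2 had a difference of -0.40 (SE 0.07, adjusted p = 0.0548) with similar values in CTR (-0.39) and AR113Q (-0.42). The squalene epoxidase Sqle differed by -0.33 and the lanosterol synthase Lss by -0.32, with adjusted p of 0.355 and 0.304. The count went down to 5 with quantile normalization, median centring or normexp background correction.

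Because these genes differed together, the bases before their starts were read. RefSeq promoters (GRCm38.p6, a different build from that of the array probes) were given for 9 of 12 lipogenic genes looked up, and the 250 bases before the start were searched on both strands for 4 short motifs of factors known to act on lipogenic promoters. Capitals mark the matches: the E-box CACGTG, the CCAAT box bound by NF-Y, the GC box GGGCGG bound by Sp1, and TCACNCCAC, a form of the sterol regulatory element. Fasn is shown as the gene that passed, and the others as members of its route and its regulator loop.

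Fasn, chr11:120824548-120824797, minus strand: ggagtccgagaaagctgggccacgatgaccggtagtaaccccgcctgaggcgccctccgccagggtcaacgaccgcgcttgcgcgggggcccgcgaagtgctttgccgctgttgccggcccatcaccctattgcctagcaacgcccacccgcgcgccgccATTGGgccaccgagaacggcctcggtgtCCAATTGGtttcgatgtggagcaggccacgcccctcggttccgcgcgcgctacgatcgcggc
Slc25a1, chr16:17928220-17928469, minus strand: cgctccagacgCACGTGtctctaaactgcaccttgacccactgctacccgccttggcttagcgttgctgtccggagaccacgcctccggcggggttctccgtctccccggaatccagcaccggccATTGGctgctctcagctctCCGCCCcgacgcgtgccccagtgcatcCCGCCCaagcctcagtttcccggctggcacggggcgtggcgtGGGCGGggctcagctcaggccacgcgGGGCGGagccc
Acly, chr11:100528001-100528250, minus strand: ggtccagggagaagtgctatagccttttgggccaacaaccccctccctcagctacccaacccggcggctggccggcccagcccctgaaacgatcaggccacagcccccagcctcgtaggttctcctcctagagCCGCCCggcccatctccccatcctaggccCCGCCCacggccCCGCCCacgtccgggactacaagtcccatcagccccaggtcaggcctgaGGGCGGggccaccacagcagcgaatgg
Insig1, chr5:28071162-28071411, plus strand: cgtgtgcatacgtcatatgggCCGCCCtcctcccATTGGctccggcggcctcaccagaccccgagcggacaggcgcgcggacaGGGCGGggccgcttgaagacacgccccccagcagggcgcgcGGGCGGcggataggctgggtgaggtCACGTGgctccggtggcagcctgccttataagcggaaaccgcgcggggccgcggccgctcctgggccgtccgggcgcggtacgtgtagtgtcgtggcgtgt

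The Fasn window held 3 matches to CCAAT, of which 2 overlap as an inverted pair, and none to the other motifs. Slc25a1 held 1 E-box, 1 CCAAT box and 4 GC boxes, Insig1 held 1, 1 and 3, and Acly held 4 GC boxes. The windows of Elovl6, Acaca and Scd3 held none of the 4 motifs, and that of Acat2 held 1 GC box. The windows of Srebf1 held CCAAT or GC boxes only. No window of the 9 genes held the sterol regulatory element. Over all 32851 promoters given, 33.8% held CCAAT, 32.7% GGGCGG, 6.02% CACGTG and 1.05% TCACNCCAC. A match is a run of letters, and binding was not measured.

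The additive model takes the diet difference to be the same in both genotypes. An interaction term tested this, and 0 genes passed an adjusted p of 0.05 in limma (smallest adjusted p 0.833), with 1396 genes at an unadjusted p under 0.05 (4.65% of probes). Several lipogenic genes nonetheless had larger differences in AR113Q than in CTR. Fasn differed by -3.01 in AR113Q and by -1.51 in CTR (interaction unadjusted p = 0.0154, adjusted p = 0.992). Elovl6 differed by -2.88 and -1.10 (interaction adjusted p = 0.914), Acly by -1.35 and -0.35 (adjusted p = 0.914), and Acaca by -1.41 and -0.62 (adjusted p = 0.999). Scd2 and Srebf1 had the opposite order, with -0.62 and -0.33 in AR113Q and -1.07 and -0.67 in CTR (adjusted p = 1 for each). No difference between the genotypes in the response passed the test.

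Since the CTR and AR113Q arrays are separate, genes chosen in one genotype can be read in the other. In AR113Q alone, 40 genes were lower at an unadjusted p under 0.001. Of these, 30 were below 0 in CTR, where 45.9% of all genes were, and 8 were lower at an unadjusted p under 0.05 (20%, against 2.48% of all genes). Among the 40 were Acaca, Acly, Elovl6, Fasn, Scd1, Scd2 and Slc25a1. Of 23 genes chosen as higher in AR113Q, 12 were above 0 in CTR (52.2%, against 54.1% of all genes) and 1 was higher at an unadjusted p under 0.05 (4.35%, against 2.87%). In the other direction, 9 genes chosen as lower in CTR gave 6 below 0 in AR113Q (66.7%, against 50.5% of all genes) and 0 at an unadjusted p under 0.05 (against 4.06%). The 3 chosen as higher gave 2 above 0 (66.7%, against 49.5%) and 0 at that p (against 3.88%). The number of genes past an adjusted p of 0.05 within a genotype depended on the estimate of the spread. In the fit of all 4 groups, which share 1 estimate, 0 genes passed in CTR (smallest adjusted p 0.285 in limma; without adjustment, 1422 lay higher and 1211 lower at p under 0.05). In AR113Q, 6 passed as lower and 1 as higher. The lower ones were Fasn and Elovl6 (adjusted p = 0.00949 each), Acaca (0.0187 by its best probe), Acly (0.0272), the Scd3 probe named above (0.0416) and NAP092820-001 (0.0456), and the higher one was Fam171b (1.03, adjusted p = 0.0272). With AR113Q arrays alone, 1 passed, which was Acaca through a dimmer probe (-1.54, SE 0.13, adjusted p = 0.0169), while Fasn had an adjusted p of 0.111.

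**Figure D2:**
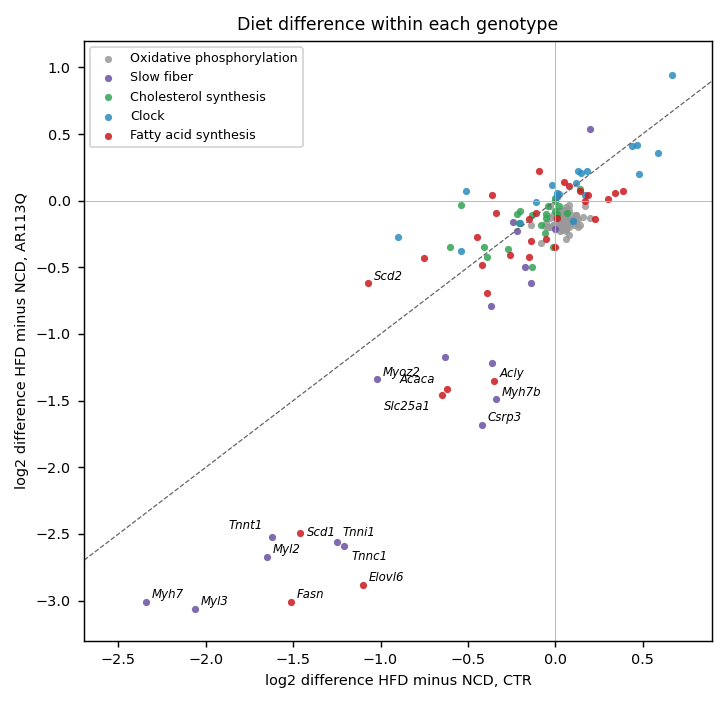
Log2 difference HFD minus NCD in CTR (x axis) and in AR113Q (y axis) for the members of 5 lists, 1 point per gene, dashed line at equal differences. Fasn, Elovl6 and Acly lie below the line and Scd2 above it, the slow fiber genes spread down to -3.06 in AR113Q, and the oxidative phosphorylation genes sit near 0.

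Fasn and the other genes that were also chosen for real-time PCR in mice on the HFD were each tested by exact permutation, with adjustment over these 8 genes. Ppargc1a, which encodes the coactivator PGC1α of mitochondrial biogenesis, had a difference of -0.45 (SE 0.18, exact permutation p = 0.0280, adjusted p = 0.112). Its means were 2.91 ± 0.52 (SD, n = 5) for CTR-NCD, 2.27 ± 0.40 (SD, n = 4) for CTR-HFD, 3.12 ± 0.36 (SD, n = 5) for AR113Q-NCD, and 2.84 ± 0.37 (SD, n = 5) for AR113Q-HFD. Atp2a2, the slow-fiber calcium pump, differed by -0.82 (exact permutation p = 0.0883) and Cidea, a lipid droplet protein of brown fat, by -0.56 (exact permutation p = 0.328). Ppara, the receptor that drives fatty acid oxidation, differed by -0.31 (exact permutation p = 0.298), Aldh9a1 by -0.21 (exact permutation p = 0.279) and the triglyceride enzyme Dgat2 by -0.18 (exact permutation p = 0.432). For the last 3 the sign in CTR alone was positive (0.07, 0.21 and 0.39). In AR113Q these 3 were negative (-0.65, -0.58 and -0.69), so the difference over both genotypes averaged opposite signs. Atp2a2 differed by -0.36 in CTR and by -1.22 in AR113Q. The interaction was not past the threshold for any of these genes. The paper shows its real-time PCR of these genes on the HFD for AR113Q mice, and the test over both genotypes does not address AR113Q alone. Tfeb, a regulator of lysosome genes, differed by 0.00 (95% interval -0.16 to 0.17, exact permutation p = 0.958).

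Genes of fatty acid use showed little of this pattern. Of 33 PPAR target genes, 1 was lower and 1 higher at an unadjusted p under 0.05 (median 0.05). The median was 0.17 in CTR and -0.09 in AR113Q. The lower one was the lipid droplet coat Plin2 at -0.31 (adjusted p = 0.442), with 0.01 in CTR and -0.59 in AR113Q. The higher one was malonyl-CoA decarboxylase, Mlycd, at 0.29 (adjusted p = 0.281), with 0.51 in CTR and 0.09 in AR113Q. Of 34 beta-oxidation genes, 1 was lower and 2 higher (median 0.02), against 4.50% and 6.31% of all genes. Their median was 0.13 in CTR and -0.08 in AR113Q. The 2 higher ones were the enoyl-CoA isomerase Eci2 (0.23, adjusted p = 0.326) and the peroxisomal enzyme Hsd17b4 (0.16, adjusted p = 0.387). Eci2 and Hsd17b4 differed by 0.40 and 0.30 in CTR and by 0.07 and 0.03 in AR113Q. The oxidative phosphorylation list had 71 of 77 members below 0, against 48.4% of all genes, but with a median of only -0.05. Its median was 0.05 in CTR and -0.15 in AR113Q. At an unadjusted p under 0.05, 2 members were lower (against 4.50% of all genes), Atp5d (-0.16) and Uqcrc1 (-0.21). The TCA cycle list had 28 of 32 members below 0 and a median of -0.08 (0.04 in CTR and -0.17 in AR113Q). At that p 4 of them were lower, among them Idh3b (-0.15, adjusted p = 0.372). The sign of the median thus differed between the genotypes for each of these lists.

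In carbohydrate metabolism, Fbp2 stood out. It encodes the muscle fructose-1,6-bisphosphatase, which runs against glycolysis, and it was 1.54-fold higher on the HFD (log2 difference 0.62, SE 0.12, adjusted p = 0.109). It read 1.5, 1.24, 1.30, 1.29 and 1.24 in CTR-NCD and 2.82, 1.58, 2.04 and 1.93 in CTR-HFD. It read 1.35, 1.48, 1.17, 1.31 and 1.5 in AR113Q-NCD and 1.68, 1.93, 1.84, 2.04 and 1.77 in AR113Q-HFD. Every HFD array was above every NCD array of its genotype, as was found for 0.0403% of all genes. The glycolysis list as a whole had a median of -0.04, with 3 of 23 genes lower and Fbp2 alone higher at an unadjusted p under 0.05. For this list, the glycogen list and the insulin list, the shares over all genes were 4.50% lower and 6.31% higher. In the glycogen list (3 of 23 lower, 1 higher, median -0.01), the liver-type phosphorylase Pygl differed by -0.67 (adjusted p = 0.294) and the liver-type synthase Gys2 by -1.06 (adjusted p = 0.297), the latter by -1.78 in AR113Q and -0.25 in CTR. The insulin and glucose uptake list had 4 of 28 lower and 1 higher. Among the lower ones were Pck1 (-1.24, adjusted p = 0.330), the phosphoenolpyruvate carboxykinase used for glycerol synthesis in fat, and Slc2a4 (-0.17, adjusted p = 0.390), the insulin-regulated glucose transporter GLUT4.

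Enzymes that break down branched-chain amino acids had 16 of 23 members below 0 (against 48.4% of all genes) and a median of -0.04. The median was 0.08 in CTR and -0.16 in AR113Q. At an unadjusted p under 0.05 (4.50% of all genes), 3 members were lower. They were the transaminase Bcat2 (-0.31, adjusted p = 0.231), the propionyl-CoA carboxylase subunit Pcca (-0.20, adjusted p = 0.247) and the kinase Bckdk (-0.20, adjusted p = 0.263), which switches the pathway off. Each of these 3 genes, unlike the list median, had a similar value in both genotypes, as the plot of genes outside lipid synthesis shows.

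Among 20 clock genes tested, 6 had a positive and 2 a negative difference with an unadjusted p under 0.05, against 6.31% and 4.50% of all genes, and none passed an adjusted p of 0.05. Among those with a positive difference were the repressor Cry2 at 0.43 (SE 0.11, adjusted p = 0.231), Ciart at 0.81 (SE 0.22, adjusted p = 0.263), Dbp at 0.44 (SE 0.18, adjusted p = 0.380) and Per2 at 0.47 (SE 0.20, adjusted p = 0.404). The activator Arntl had a difference of -0.46 (SE 0.15, adjusted p = 0.304) and its repressor Nr1d1 one of -0.57 (SE 0.18, adjusted p = 0.288). Cry2 was higher in 9 of 9 pairs of arrays of a genotype and slide. The count of 6 went down to 3 without CTR-NCD replicate 3, AR113Q-NCD replicate 3, CTR-HFD replicate 2 or CTR-HFD replicate 4. It was 2 without slide 4, 1 with CTR arrays alone and 3 with AR113Q arrays alone. These transcripts cycle with the time of day, and the hour of sacrifice of each mouse is not given in the sources used here, so that diet and hour cannot be told apart.

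**Figure D3:**
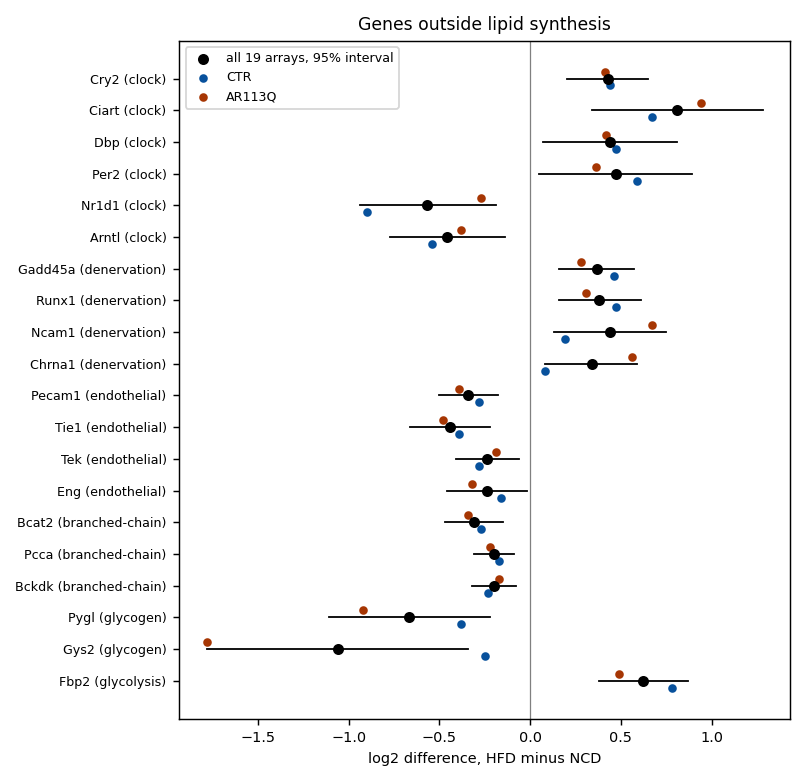
Log2 difference HFD minus NCD with its 95% interval for 20 genes outside lipid synthesis (black, all 19 arrays), and the difference within CTR (blue) and AR113Q (brown). The clock genes lie on both sides of 0, the denervation genes above 0 and the endothelial and branched-chain amino acid genes below 0, and none passed an adjusted p of 0.05.

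Slow fiber genes had the median farthest from 0 of all lists read (-0.93, and -0.40 in CTR). A total of 17 of 18 were below 0, against 48.4% of all genes. At an unadjusted p under 0.05, 9 were lower, against 4.50% of all genes. Myh7, the slow myosin heavy chain, differed by -2.69 (SE 1.07, 95% interval -4.94 to -0.45, adjusted p = 0.376). Myl3, a slow myosin light chain, differed by -2.59 (SE 0.86, adjusted p = 0.310), and the slow troponins Tnnc1 and Tnni1 each by -1.94 (adjusted p = 0.355 and 0.385).

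Myh7 read 3.54, 6.27, 5.01, 0.99 and 3.33 in CTR-NCD and 2.60, -0.86, 6.44 and -2.24 in CTR-HFD. It read 6.30, 6.28, 7.13, 6.01 and 6.19 in AR113Q-NCD and 5.47, 0.46, 0.04, 5.0 and 5.90 in AR113Q-HFD. The HFD arrays split into high and low values within each genotype, with CTR-HFD replicates 2 and 4 and AR113Q-HFD replicates 2 and 3 low and CTR-HFD replicate 3 as high as the AR113Q-NCD arrays. The count of 9 lower members was 15 without CTR-HFD replicate 3. It was 2 without CTR-HFD replicate 4, 3 without AR113Q-HFD replicate 3, and 5 without CTR-NCD replicate 2 or 3, AR113Q-NCD replicate 3, CTR-HFD replicate 2 or AR113Q-HFD replicate 2. It was 0 with CTR arrays alone, 14 with AR113Q arrays alone and 0 without slide 2. In bulk tissue, fewer slow fibers in the piece of muscle and less RNA per slow fiber cannot be told apart. Fast fiber genes had a median of -0.02, and 1 of 18, the fast calcium pump Atp2a1 (-0.16, adjusted p = 0.359), was lower at an unadjusted p under 0.05.

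**Figure D4:**
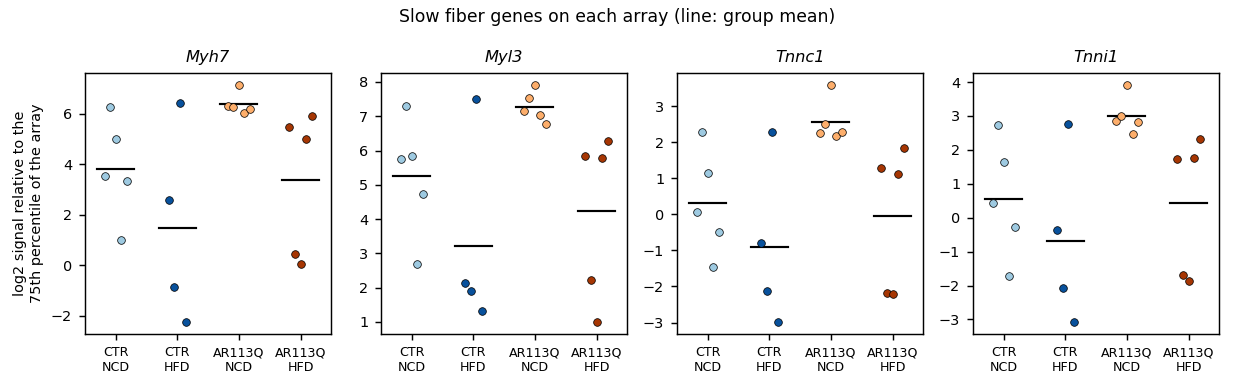
Level of 4 slow fiber genes on each array (log2 signal relative to the 75th percentile of the array, 1 point per array, line at the group mean). The HFD groups span high and low arrays, and the AR113Q-NCD arrays lie close together at the top.

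Endothelial markers had 11 of 12 members below 0 (against 48.4% of all genes) and a median of -0.19 (-0.06 in CTR and -0.26 in AR113Q). At an unadjusted p under 0.05, 6 were lower, against 4.50% of all genes. Pecam1, the endothelial adhesion molecule CD31, differed by -0.34 (SE 0.07, adjusted p = 0.202), Tie1 by -0.44 (SE 0.10, adjusted p = 0.229), Tek by -0.24 (adjusted p = 0.338) and Eng by -0.24 (adjusted p = 0.405). The basement membrane collagens Col4a1 (-0.39, adjusted p = 0.271) and Col4a2 (-0.31, adjusted p = 0.336) of the matrix list also had negative differences. The list mean was 0.89 to 1.10 in AR113Q-HFD and 1.06 to 1.61 in CTR-HFD, against 1.06 to 1.5 and 1.21 to 1.36 on the NCD. CTR-HFD replicate 3 was the highest array for this list as it was among the CTR arrays for the slow fiber list. The count of 6 was 3 without CTR-NCD replicate 3, AR113Q-NCD replicate 1 or 3, CTR-HFD replicate 2 or AR113Q-HFD replicate 3, 0 with CTR arrays alone and 8 with AR113Q arrays alone. With the slow fiber level as a covariate it was 2, an alternative chosen after seeing the data. With the endothelial level as a covariate, also chosen then, the Fasn log2 difference HFD minus NCD was -2.47 (adjusted p = 0.244).

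Genes that rise in denervated muscle had 4 of 20 members higher at an unadjusted p under 0.05 (against 6.31% of all genes) and none lower, with a median of 0.10. They were the stress gene Gadd45a (0.37, SE 0.10, adjusted p = 0.247), the transcription factor Runx1 (0.38, SE 0.11, adjusted p = 0.263), the adhesion molecule Ncam1 (0.44, SE 0.15, adjusted p = 0.310) and the acetylcholine receptor subunit Chrna1 (0.34, SE 0.12, adjusted p = 0.347). Of the 3 probes of Ncam1, which ranged from 0.01 to 0.44, only 1 had an unadjusted p under 0.05. The dimmer probe of Runx1 was at 0.20 and did not reach that p. Ncam1 and Chrna1 differed by 0.67 and 0.56 in AR113Q and by 0.19 and 0.08 in CTR (interaction not past the threshold). The count was 4 or 5 with any array left out, 1 when the genotype term was dropped, and 2 with CTR arrays alone. In the antioxidant list, 3 of 24 were higher at an unadjusted p under 0.05, against 6.31% of all genes. At that p 1 was lower (against 4.50%), Gpx3 (-0.24, adjusted p = 0.387). The higher ones included catalase (Cat, 0.39, adjusted p = 0.261, and 0.15 by its dimmer probe) and Nqo1 (0.31, adjusted p = 0.347). In the autophagy list 3 of 29 were higher (against 6.31% of all genes) and none lower. Among the 3 were Atg7 (0.16, adjusted p = 0.285, and -0.02 by its dimmer probe) and the protease Ctsl (0.17, adjusted p = 0.3).

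**Figure D5:**
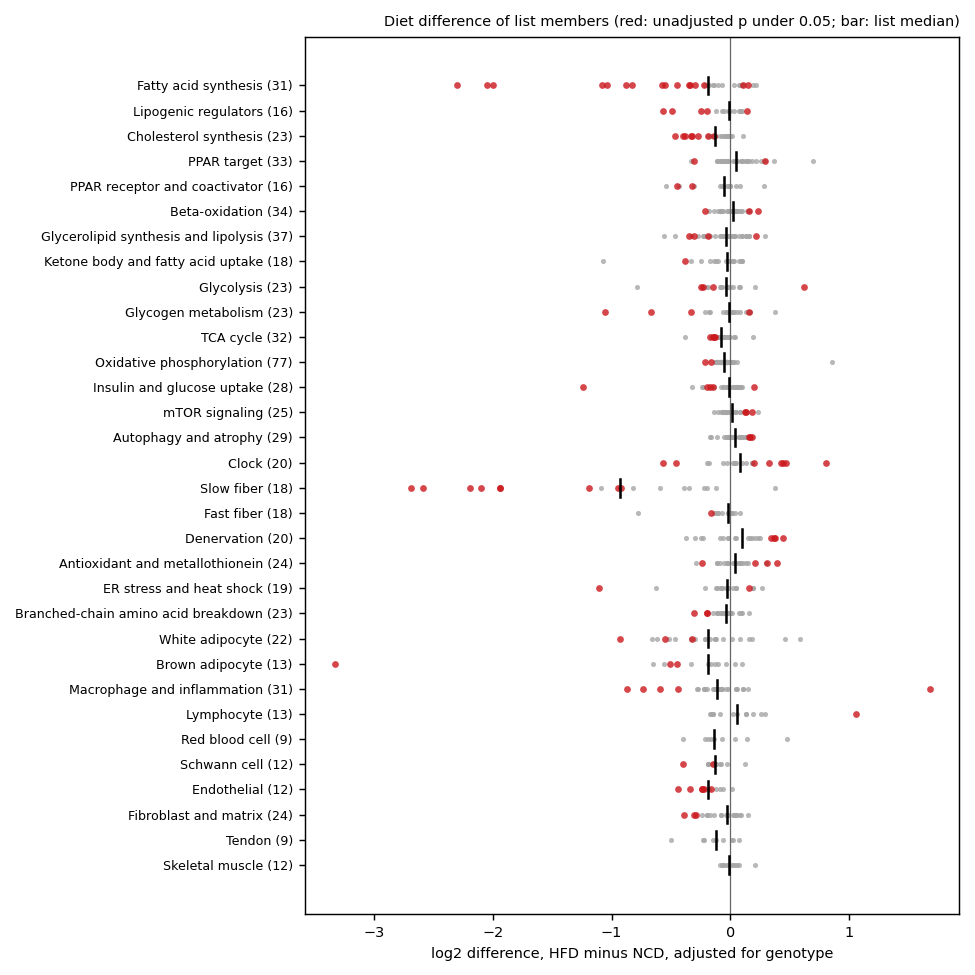
Log2 difference HFD minus NCD of each list member (1 point per gene and 1 row per list, with the number of members tested in brackets), red where the unadjusted p was under 0.05, bar at the list median. Fatty acid synthesis has 14 red points below 0 and 2 above, and slow fiber genes spread from -2.69 to 0.38.

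Markers of fat cells were read because fat tissue also expresses the lipogenic enzymes. White adipocyte markers had 16 of 22 members below 0 (against 48.4% of all genes) and a median of -0.19. At an unadjusted p under 0.05, 3 were lower (against 4.50% of all genes), among them Rbp4 (-0.93, adjusted p = 0.347) and Pparg (-0.32, adjusted p = 0.392). The list mean was 0.68 to 1.99 in CTR-NCD, 0.64 to 1.76 in CTR-HFD, 0.96 to 1.84 in AR113Q-NCD and 0.40 to 1.74 in AR113Q-HFD, so that the groups overlapped. With this mean as a covariate the difference of Fasn was -2.10 (adjusted p = 0.00354), that of Acaca -0.95, of Elovl6 -1.95 and of Scd1 -1.68, and 12 genes were lower and 4 higher at an adjusted p under 0.05.

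Brown adipocyte markers had 11 of 13 members below 0 (against 48.4% of all genes), 3 of them at an unadjusted p under 0.05 (against 4.50%). Their list mean was 1.27 on AR113Q-NCD replicate 2 and at most 0.40 on all other arrays. Ucp1, the uncoupling protein of brown fat, differed by -3.33 (SE 1.2, adjusted p = 0.343), with -1.98 in CTR and -4.53 in AR113Q. It read 3.85 on this array, -0.21 and -2.78 on AR113Q-NCD replicates 4 and 5, and -4.11 and -1.25 on CTR-NCD replicates 4 and 5. The other NCD arrays read -8.56 to -4.91 and the HFD arrays -8.51 to -4.85. Ucp1 was well above background on 7 NCD arrays and 2 HFD arrays in all. CTR-NCD replicates 4 and 5 had the highest Fasn of the CTR arrays (-0.61 and -0.84). On AR113Q-NCD replicates 1 to 5, Ucp1 read -4.91, 3.85, -6.22, -0.21 and -2.78. Fasn read -0.60, 1.13, 0.14, -0.41 and 0.52 on the same arrays, which is not the same order. A relation between Fasn and Ucp1 was not tested. AR113Q-NCD replicate 2 had the highest Fasn and Elovl6 of all arrays. Without it, the Fasn log2 difference HFD minus NCD was -2.14 (adjusted p = 0.0263) and the Elovl6 log2 difference HFD minus NCD was -1.80 (adjusted p = 0.0263). The other cell type lists were counted at the same p, at which 4.50% of all genes were lower and 6.31% higher. Of 12 Schwann cell markers, 2 were lower. Of 31 macrophage and inflammation markers, 4 were lower, including Ccl8 (-0.87, adjusted p = 0.359) and Cxcl1 (-0.59, adjusted p = 0.325), and 1 was higher. The higher one, Saa3 (1.68, adjusted p = 0.318), was well above background on 3 CTR-HFD arrays, 1 CTR-NCD array and no AR113Q array. Of 13 lymphocyte markers, 1 was higher, Jchain (1.06, adjusted p = 0.323).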

How the data were processed

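Total RNA of 19 quadriceps samples was hybridized to Agilent one-colour mouse arrays. The deposited intensity values were made by the authors with Feature Extraction (version 10.7.3.1 in the submitters' processing notes), after subtraction of background. The authors also deposited log2 values for 25944 transcripts, whose normalization is not given in the sources used here and which served as an alternative. Outlier and control spots were dropped, log2 intensities were averaged per probe, and each array was centred on its 75th percentile. A probe was kept where 4 or more arrays had at least 0.5 of its spots well above background. The diet term was fitted with limma 3.58.1 in R 4.3.3 (genotype plus diet) and adjusted by Benjamini-Hochberg over all probes. The fit was first tested on simulated data. The members, gene lists and tests were chosen with earlier results of these data known. The genes named are those past the threshold, those measured by real-time PCR and up to 4 members of each list with the smallest p; others were chosen after their values were seen, and some genes of the rule are not reported here. The arrays lay on 5 slides, and their number limits the precision. RefSeq accessions gave current symbols for 27655 of 39429 probes. Plots used matplotlib 3.10.9.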

Additional observations from a re-analysis of the deposited data

Results flagged for a closer look

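In 25 of 368 groups of values tested, 1 array lay apart from the others of its group by Dixon's test. Chance gives about 1 in 20 such groups.

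CTR-HFD replicate 3 was the highest of its group for Myl3 (7.51), Atp2a2 (3.35), Atp5d (6.41), Ncam1 (-1.57) and the endothelial list mean (1.61), and the lowest for Cry2 (2.79). AR113Q-NCD replicate 2 was the highest of its group for Cidea (4.03), Plin2 (2.72) and Acat2 (-3.34) and stood apart for the denervation list mean (0.35). AR113Q-NCD replicate 3 was the highest for Myh7 (7.13), Tnnc1 (3.58) and Atp2a2 (3.86). Among the lipogenic genes, Scd1 on AR113Q-NCD replicate 1 (3.74) and Scd2 on CTR-HFD replicate 1 (1.26) lay below the rest of their groups.

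The other arrays that stood apart from their group were AR113Q-NCD replicate 5 for Ccdc64 (-1.23), Ccl8 (-0.62) and the red blood cell list mean (0.80), AR113Q-HFD replicate 3 for Acat2 (-3.65) and Col4a2 (2.36), CTR-HFD replicate 2 for Lss (-3.57), CTR-NCD replicate 1 for Fbp2 (1.5) and Ppargc1a (3.80), CTR-NCD replicate 3 for Dbp (4.73) and CTR-NCD replicate 5 for the endothelial list mean (1.21).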

How the results depend on the processing

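With 1 gene lower and 0 higher at an adjusted p of 0.05, the counts moved with most settings. Lower genes numbered 2 with quantile normalization or median centring, 14 (11 higher) with normexp, 7 (2 higher) with probes well above background on all arrays, 18 (9 higher) with slide as a random block, 11 (2 higher) with array weights, 7 (1 higher) with an intensity trend, 6 (1 higher) for the mean of both genotypes and 12 (4 higher) with the white adipocyte level as a covariate. They numbered 0 with the authors' values, no filter on dim probes, robust variance, no genotype term, CTR arrays alone, or any slide left out (without slide 4, 1 gene was higher), and slide as a block gave 1 lower and 1 higher. Looser thresholds gave 8 lower and 2 higher (adjusted p under 0.1) or 70 and 56 (unadjusted p under 0.001). Leaving out single arrays gave 0 to 8 lower and 0 to 3 higher, with 8 and 3 without CTR-HFD replicate 3 and 6 lower without CTR-NCD replicate 1. Covariates chosen after seeing the data gave 7 lower and 20 higher (slow fiber level) and 0 lower (endothelial level). The cause of these moves was not tested. The interaction count was 0 in every setting run.

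Over 44 settings with a p, the difference of Fasn lay between -3.01 and -1.39, and 20 gave an adjusted p under 0.05. Signs turned for Aldh9a1 (0.21), Dgat2 (0.39), Ppara (0.07) and Plin2 (0.01) with CTR arrays alone, for Dgat2 (0.13), Cidea (0.16) and Ppara (0.19) with the slow fiber level, and for Dgat2 (0.21), Cidea (0.12), Ppara (0.17) and Atp2a2 (0.14) with the endothelial level. The replicate block gave 37 lower and 35 higher genes. In their deviations from the group means, 19 of 27 same-number pairs of arrays correlated above 0.1 (median 0.24, range -0.21 to 0.54). Of 108 pairs with different numbers, 27 did (median -0.09). On the same slide 22 of 27 pairs did (median 0.27), and 14 of 19 arrays correlated best with their own number. Replicate number and slide number were the same for every array except CTR-HFD replicate 4, which lay on slide 5. The replicate block and the slide block thus differed by the place of 1 array. The sources do not say what the replicate numbers mark, and the main model did not use them as a pairing. The count of 1 lower gene depends on that choice.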

Other observations

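Beyond lipid synthesis, 10 genes had every HFD array above the NCD arrays in both genotypes. Among them were Fbp2, Ccdc64 (0.29, SE 0.05, adjusted p = 0.0516) and the non-coding RNA Cerox1 (0.31, SE 0.05, adjusted p = 0.0516). These were chosen after their values were seen.

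At an unadjusted p under 0.05, 4.50% of all genes were lower and 6.31% higher. Some of the lists below lay above these shares, such as mTOR signaling (higher). Several lists had at most 3 members in either direction at that p. They were glycerolipid synthesis and lipolysis (3 of 37 lower, 1 higher), ketone body and fatty acid uptake (1 of 18 lower), PPAR receptors and coactivators (2 of 16 lower), mTOR signaling (3 of 25 higher), ER stress and heat shock (1 of 19 lower, 1 higher), red blood cell (0 of 9) and tendon markers (0 of 9).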
